A study of Homo sapiens with 6 samples.

Results

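The genes described here encode proteins of the extracellular matrix and the basement membrane, and the proteases, inhibitors and crosslinking enzymes that act on them. They come from a list of 40 gene symbols, of which the 38 with at least 60 counts summed over all libraries were kept, out of 62710 genes in the count table. COL17A1 (19 counts summed) and SPARC (18 counts summed) fell under that minimum, and MMP1, the lowest gene kept, had 81. The measurements are sequencing of polyadenylated RNA from MHCC97-H, a human hepatocellular carcinoma line that was selected for high metastatic capacity. Of the 6 libraries, 2 came from cells given chloroquine at 40 µM for 16 h, 2 from cells given melatonin at 0.2 mM for 16 h and 2 from untreated cells collected with them. All were labelled wild type, all came from the same line, and no library of vehicle alone was analysed here. In the study chloroquine served to block autophagy and melatonin to relieve stress of the endoplasmic reticulum (ER). Nothing in the labels says whether the libraries of a group came from separate cultures, so the p-values measure only the spread between these libraries. That spread was largely pooled over all genes, so a p-value rests little on the spread of that gene alone.

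The matrix is a network of secreted proteins in which fibrillar collagens give tensile strength and adhesive glycoproteins such as fibronectin link cells to it. A basement membrane is the thin sheet under epithelia in which a laminin network and a type IV collagen network are held together by nidogen, perlecan and agrin. Metalloproteinases cut these proteins, as does plasmin, the enzyme that the plasminogen activators make from plasminogen. Tissue inhibitors of metalloproteinases (TIMPs) and serpins restrain the cutting, and lysyl oxidases crosslink collagen. Nearly all of these proteins are folded in the ER before secretion, and their turnover is studied in liver cancer for its part in invasion. Chloroquine raises the pH of lysosomes and so stops the breakdown of autophagosomes, and melatonin is the hormone of the pineal gland.

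Library totals ran from 15993730 to 23311452 counts, so that a count of 0 allowed up to 3 counts, or 0.123 to 0.184 CPM, which covers counting error only. CPM are counts scaled to a common library size, here with totals corrected by trimmed means of M values (TMM). Of 10 hepatocyte markers 8 stayed under 3 counts in every library, with APOB, TTR and FGB at 0, so the labelled liver origin was not visible in those genes. The others were SERPINA1, with 28 counts summed, and HNF4A, with 141. HNF4A averaged 1.30 CPM with chloroquine, 0.468 CPM with melatonin and 2.04 CPM in untreated cells. Its log2 fold change was -0.65 with chloroquine, not called, and -2.06 with melatonin, called. All 7 epithelial markers were measured, summing to 2301–2347 CPM with chloroquine, 1473–1534 CPM with melatonin and 2940–3054 CPM in untreated cells. KRT7, KRT8 and KRT18 carried that sum, and EPCAM went another way, rising by 0.46 with chloroquine and standing at 0.08 with melatonin. Of 10 fibroblast markers 4 stayed under 3 counts in every library, PDGFRA at 0, and the list summed to 17.6–17.8 CPM with chloroquine, 7.13–7.73 CPM with melatonin and 22.1–23.2 CPM in untreated cells. FAP and PDGFRB made up most of the untreated sum. Uncalled values went another way for ACTA2 with melatonin (2.81 CPM, 2.60 in untreated cells) and for FAP with chloroquine (10.2 CPM, 9.11 in untreated cells). Both sums were lowest with melatonin and highest in untreated cells, as were many of the matrix genes below, and their part in the results was not tested. In bulk RNA, fewer cells of a type and less RNA per cell cannot be told apart.

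Most of the matrix genes that passed the test with either agent were lower than in untreated cells. In edgeR's quasi-likelihood test, with p-values adjusted over all 16877 genes tested by the Benjamini-Hochberg method and called under 0.05, chloroquine against untreated cells gave 1 gene that rose, 19 that fell and 18 that did not pass. That is 52.6% called, where 20.2% of all tested genes were called, 9.54% higher and 10.7% lower. The 38 genes were chosen with earlier results of these data known. The shares here therefore describe them, and no excess over all genes is read as a result. Melatonin against untreated cells gave 7 genes that rose, 25 that fell and 6 that did not pass, or 84.2% called, where the background was 52.0%, with 25.5% higher and 26.5% lower. Of the 7, MMP1 could enter the test only by being high with melatonin, and 6 of the other 37 genes rose. The balance of directions over all genes depended on scaling, since 4307 genes were higher and 4475 lower with melatonin as fitted, and 5541 higher and 3434 lower with library totals only. The median log2 fold change of the 38 genes was -0.15 with chloroquine and -0.33 with melatonin, beside medians of -0.00 and 0.01 over all genes tested. The count of genes that rose with melatonin was 4 without melatonin library 2, 4 without untreated library 2 and 3 in DESeq2. Both agents were set against the same 2 untreated libraries, so their values are given side by side and no overlap between them is read as a result. The 38 genes were more GC-rich than the rest, and offsets for GC content and transcript length left 1 higher and 14 lower with chloroquine and 7 higher and 20 lower with melatonin, where 10.7% and 48.1% of all tested genes were called with the offsets.

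**Figure D1:**
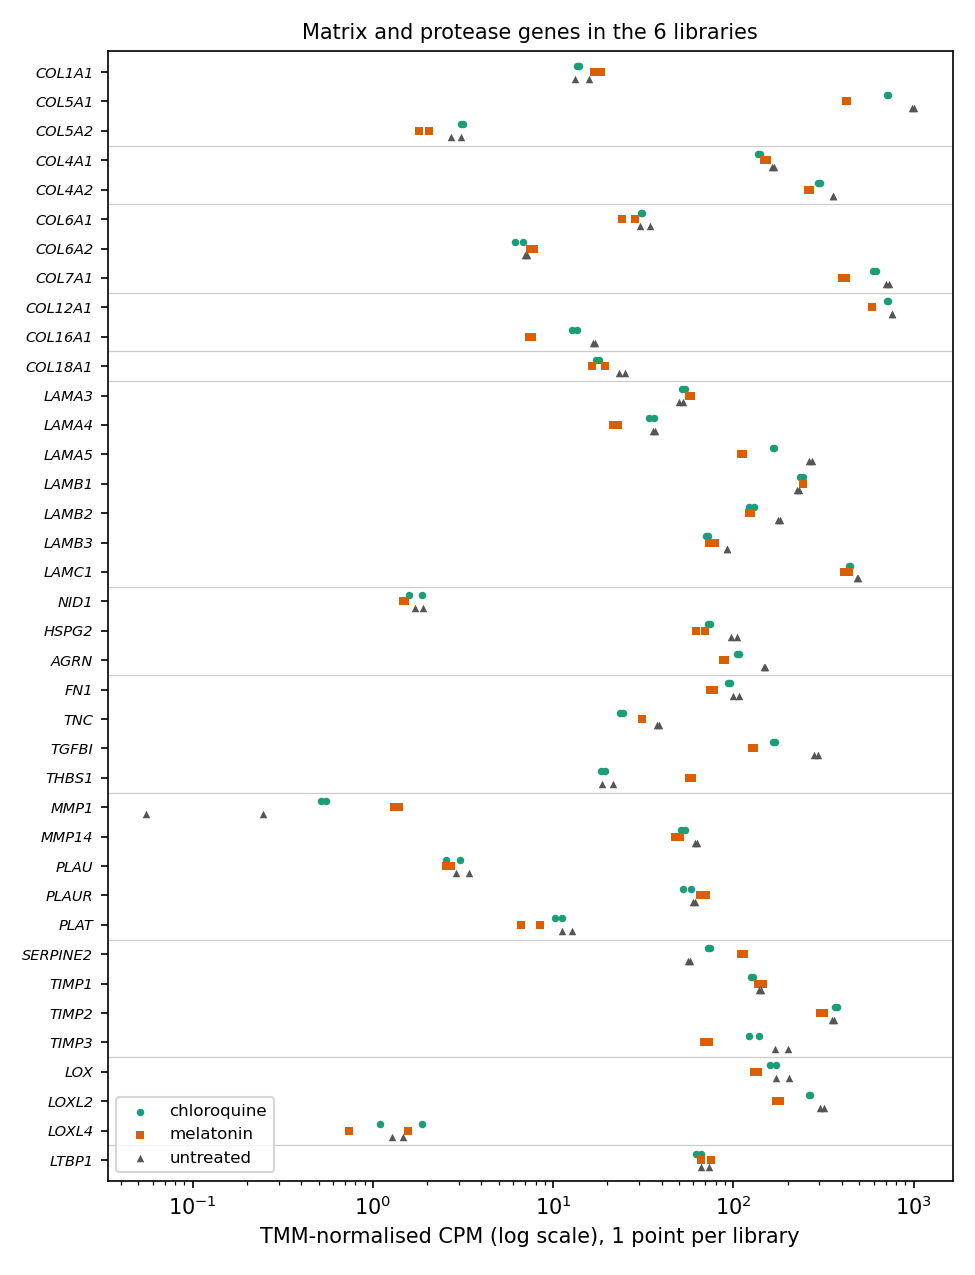
TMM-normalised CPM (log scale) of the 38 genes in the 6 libraries, 1 point per library, with chloroquine, melatonin and untreated libraries drawn from top to bottom within each gene and grey lines between gene groups. THBS1, SERPINE2 and MMP1 lie to the right in the melatonin libraries, and COL5A1, LAMA5, TGFBI and TIMP3 lie to the left in them.

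**Figure D2:**
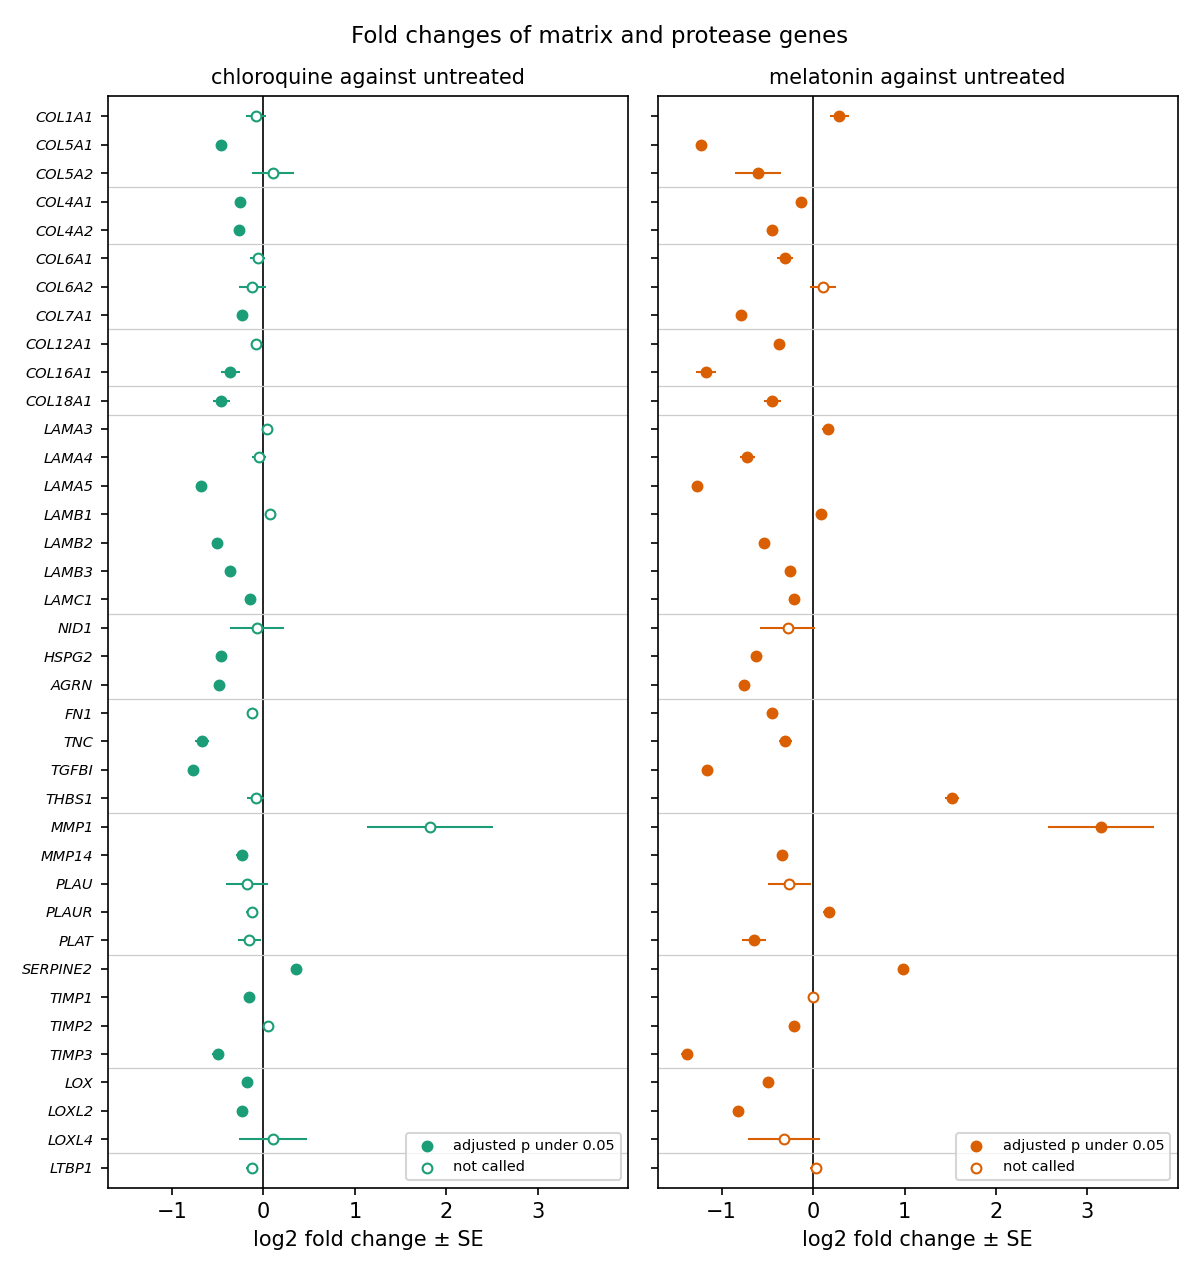
Log2 fold changes of the 38 genes with their standard errors, chloroquine against untreated cells on the left and melatonin against untreated cells on the right. Filled points passed an adjusted p of 0.05 (20 genes with chloroquine, 32 with melatonin), and open points did not.

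The fibrillar collagens did not move as a group. COL5A1, the chain that sets the diameter of collagen fibrils, is on chromosome 9 at 134641774–134844843 (GRCh38, plus strand) and is 1 of the strongest matrix transcripts here. It had 709 and 722 CPM with chloroquine, 423 and 424 CPM with melatonin and 1006 and 973 CPM in untreated cells. The groups did not overlap and both melatonin libraries were the lowest. COL5A1 fell by 0.47 ± 0.033 on the log2 scale with chloroquine (1.38-fold lower, adjusted p = 3.21e-11) and by 1.22 ± 0.034 with melatonin (2.33-fold lower, adjusted p = 6.67e-21). With the GC and length offsets the log2 values were -0.30 and -1.03.

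Its partner chain COL5A2 was far lower in level, at 3.08 and 3.16 CPM with chloroquine, 1.80 and 2.05 CPM with melatonin and 2.70 and 3.10 CPM in untreated cells. Its log2 fold change with melatonin was -0.60 ± 0.25 (adjusted p = 0.0427), a call that ended in DESeq2 (-0.60), with the replicate block (-0.59), with library totals only (-0.51) and without chloroquine library 1 (-0.61), melatonin library 1 (-0.50) or 2 (-0.69), or untreated library 1 (-0.70) or 2 (-0.51), and with chloroquine it was 0.10 ± 0.23. COL1A1, the main chain of type I collagen, went the other way with melatonin. It had 13.6 and 14.0 CPM with chloroquine, 18.4 and 16.9 CPM with melatonin and 13.2 and 15.8 CPM in untreated cells, so the chloroquine and untreated libraries overlapped. COL1A1 rose by 0.29 ± 0.10 with melatonin (adjusted p = 0.0224), was at -0.08 ± 0.11 with chloroquine, and its call with melatonin ended in DESeq2 and without melatonin library 1 (0.21) or untreated library 1 (0.16).

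The network-forming chains of basement membrane collagen, COL4A1 and COL4A2, are read in opposite directions from a short shared promoter. RefSeq (GRCh38.p14) starts COL4A1 at 110307157 on the minus strand and COL4A2 at 110307284 on the plus strand of chromosome 13. The 126 bases between those starts, at chr13:110307158-110307283, plus strand, are printed because both genes that share them were measured. Capitals mark a CCAAT box and a GC box (GGGCGG).
COL4A1 and COL4A2, between the starts: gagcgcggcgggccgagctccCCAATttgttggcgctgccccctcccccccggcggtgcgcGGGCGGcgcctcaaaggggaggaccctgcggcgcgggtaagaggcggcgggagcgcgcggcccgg
COL4A1 had 137 and 141 CPM with chloroquine, 154 and 149 CPM with melatonin and 165 and 167 CPM in untreated cells. COL4A2 had 301 and 294 CPM with chloroquine, 265 and 260 CPM with melatonin and 356 and 359 CPM in untreated cells. COL4A1 was thus lowest with chloroquine and COL4A2 lowest with melatonin, with no overlap between groups for either gene, and in chloroquine over melatonin COL4A1 was at -0.12 and COL4A2 at 0.18, both called. The COL4A1 call in chloroquine over melatonin ended in DESeq2 (-0.12), without the count filter (-0.10) and without chloroquine library 1 or melatonin library 1 (-0.10 each). COL4A1 fell by 0.25 ± 0.039 with chloroquine and by 0.13 ± 0.039 with melatonin, and COL4A2 fell by 0.26 ± 0.034 and by 0.45 ± 0.035 (adjusted p = 2.51e-05, 0.00556, 2.00e-06 and 1.67e-11 in that order). The offsets ended the call of COL4A1 with melatonin (-0.05) and of COL4A2 with chloroquine (-0.07), library totals without further scaling also ended the melatonin call of COL4A1 (-0.04), and the 2 genes overlap at their starts, so without a known strand setting their reads there are uncertain.

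Among the other collagens the anchoring and fibril-associated chains were lower with melatonin. COL7A1, the chain of anchoring fibrils under epithelia, had 619 and 593 CPM with chloroquine, 424 and 401 CPM with melatonin and 701 and 728 CPM in untreated cells. It fell by 0.24 ± 0.036 with chloroquine (adjusted p = 1.97e-05) and by 0.79 ± 0.036 with melatonin (1.73-fold lower, adjusted p = 3.73e-16), with no overlap between groups. With the offsets its value was 0.01 with chloroquine, which ended and turned that call, and -0.47 with melatonin. COL16A1, which attaches to the surface of fibrils, had 12.7 and 13.5 CPM with chloroquine, 7.36 and 7.61 CPM with melatonin and 16.6 and 17.0 CPM in untreated cells. It fell by 0.36 ± 0.10 with chloroquine (adjusted p = 0.0121) and by 1.17 ± 0.11 with melatonin (2.25-fold lower, adjusted p = 9.28e-10). The melatonin libraries were the lowest in both genes. The chloroquine call of COL16A1 ended with the offsets (-0.16), in DESeq2 (-0.36) and without chloroquine library 1 (-0.32) or untreated library 2 (-0.34).

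COL12A1, a fibril-associated collagen and 1 of the strongest transcripts of the set, fell by 0.37 ± 0.033 with melatonin (722 and 714 CPM with chloroquine, 587 and 587 CPM with melatonin, 763 and 755 CPM in untreated cells), with both melatonin libraries under all others. With chloroquine it stood at -0.08 ± 0.033 (adjusted p = 0.0850), called with the offsets (-0.11) and without melatonin library 1 or 2 (-0.08 each). COL18A1, whose cleaved end is the angiogenesis inhibitor endostatin, fell by 0.46 ± 0.093 with chloroquine and by 0.45 ± 0.093 with melatonin, and both calls ended with the offsets (-0.18 and -0.04). SLC19A1, with 1701 counts summed beside 2249 for COL18A1, overlaps it on the other strand, which makes part of its count uncertain. Of the beaded-filament chains, COL6A1 fell by 0.31 ± 0.086 with melatonin, which turned to 0.03 with the offsets and was not called without melatonin library 1 (-0.18) or untreated library 1 (-0.23), and stood at -0.06 ± 0.084 with chloroquine. COL6A2 passed in neither comparison (-0.12 ± 0.15 with chloroquine, 0.11 ± 0.14 with melatonin, 0.55 and called with the offsets). Over the 11 collagens kept, none rose and 6 fell with chloroquine and 1 rose and 9 fell with melatonin, or 0 and 3, and 2 and 6, with the offsets. That is 54.5% and 90.9% called without offsets, beside 20.2% and 52.0% of all tested genes. With the offsets 10.7% and 48.1% of all tested genes were called.

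Laminins are built of an alpha, a beta and a gamma chain. LAMA5, the alpha chain of the laminins of mature epithelial and endothelial basement membranes, is on chromosome 20 at 62307955–62367312 (minus strand) and fell the furthest of the 7 chains measured. It had 166 and 167 CPM with chloroquine, 113 and 110 CPM with melatonin and 262 and 275 CPM in untreated cells, with no overlap between groups. LAMA5 fell by 0.69 ± 0.037 with chloroquine (1.61-fold lower, adjusted p = 1.17e-13) and by 1.27 ± 0.039 with melatonin (2.41-fold lower, adjusted p = 4.68e-20). Its transcript is 66.4% GC, and the offsets brought these to -0.41 and -0.90, still called. ADRM1 overlaps it on the other strand, which makes part of its count uncertain. The 250 bases before its RefSeq start (GRCh38.p14, chr20:62367313-62367562, minus strand) are shown as the most GC-rich promoter printed here, 82.8% GC, with the 5 GC boxes (GGGCGG or its complement CCGCCC) in capitals.
LAMA5: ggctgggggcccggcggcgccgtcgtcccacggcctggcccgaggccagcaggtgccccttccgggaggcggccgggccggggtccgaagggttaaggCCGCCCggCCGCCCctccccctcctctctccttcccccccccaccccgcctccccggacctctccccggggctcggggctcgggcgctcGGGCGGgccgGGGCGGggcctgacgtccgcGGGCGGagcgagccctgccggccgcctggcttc

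LAMA4, an alpha chain of blood vessel laminins, changed with melatonin. It had 33.9 and 36.5 CPM with chloroquine, 21.5 and 22.8 CPM with melatonin and 35.9 and 36.8 CPM in untreated cells. The melatonin libraries were the lowest and the chloroquine and untreated libraries overlapped. LAMA4 fell by 0.72 ± 0.078 with melatonin (1.64-fold lower, adjusted p = 1.19e-08) and was at -0.05 ± 0.074 with chloroquine. LAMA3, the alpha chain of the hemidesmosome laminin, rose by 0.16 ± 0.059 with melatonin (adjusted p = 0.0262), a call that ended with the offsets (0.10), in DESeq2 (0.15) and without melatonin library 2 (0.13) or untreated library 2 (0.11). With chloroquine LAMA3 was at 0.04 ± 0.060.

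Of the beta and gamma chains, LAMB2 fell with each agent. It had 122 and 130 CPM with chloroquine, 122 and 126 CPM with melatonin and 177 and 182 CPM in untreated cells, so the treated libraries overlapped each other and lay under the untreated ones. LAMB2 fell by 0.51 ± 0.041 with chloroquine and by 0.54 ± 0.041 with melatonin (adjusted p = 3.22e-10 and 1.04e-11), or -0.35 and -0.31 with the offsets. LAMB3, the partner of LAMA3, fell by 0.37 ± 0.049 with chloroquine and by 0.26 ± 0.048 with melatonin, the melatonin call ending with the offsets (-0.05). LAMC1, the gamma chain shared by most laminins, fell by 0.15 ± 0.035 and by 0.21 ± 0.035, and its chloroquine call ended without chloroquine library 1 (-0.14). LAMB1 was at 0.07 ± 0.036 with chloroquine and rose by 0.09 ± 0.036 with melatonin (adjusted p = 0.0355), a call that ended with the offsets (0.04), in DESeq2 (0.09) and with any 1 of the 6 libraries left out (0.06 to 0.10), and DLD overlaps it on the other strand. Of the 7 laminin chains, 4 fell with chloroquine, and 5 fell and 2 rose with melatonin. Under the offsets 4 fell and none rose with each agent. Beside these counts, 20.2% of all tested genes were called with chloroquine and 52.0% with melatonin, or 10.7% and 48.1% with the offsets. No excess over all genes is read from these 7 chains.

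The linkers that join these networks fell where they were well measured. AGRN, agrin, had 108 and 104 CPM with chloroquine, 87.5 and 89.5 CPM with melatonin and 149 and 149 CPM in untreated cells. HSPG2, perlecan, had 74.4 and 72.4 CPM with chloroquine, 61.8 and 69.8 CPM with melatonin and 96.7 and 105 CPM in untreated cells. Both heparan sulfate proteoglycans were highest in the untreated libraries and lowest in the melatonin libraries, with no overlap. AGRN fell by 0.49 ± 0.041 with chloroquine and by 0.75 ± 0.041 with melatonin (adjusted p = 8.93e-10 and 1.63e-14), and HSPG2 fell by 0.46 ± 0.054 and by 0.63 ± 0.055 (adjusted p = 3.83e-07 and 1.67e-10). They are among the most GC-rich genes of the set (67.5% and 64.5%), and the offsets brought AGRN to -0.20 and -0.34 and HSPG2 to -0.22 and -0.32, all still called. NID1, nidogen, with 1.47 to 1.90 CPM over all libraries, was at -0.07 ± 0.30 and -0.28 ± 0.30 and passed in neither comparison.

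THBS1, thrombospondin, a matricellular glycoprotein that activates latent transforming growth factor beta (TGF-beta) and inhibits angiogenesis, was the strong exception among the glycoproteins. It is on chromosome 15 at 39581079–39599466 (plus strand). THBS1 had 18.5 and 19.4 CPM with chloroquine, 56.6 and 59.1 CPM with melatonin and 18.8 and 21.4 CPM in untreated cells. Both melatonin libraries stood far above the rest, and the chloroquine and untreated libraries overlapped. THBS1 rose by 1.52 ± 0.078 with melatonin (2.87-fold, adjusted p = 2.99e-15; 1.38 with the offsets) and was at -0.09 ± 0.089 with chloroquine (adjusted p = 0.560). The 250 bases before its RefSeq start (GRCh38.p14, chr15:39580829-39581078, plus strand) are shown for a reason of rank. Among those of the 38 genes with over 100 counts in every library, THBS1 rose most with melatonin. Capitals mark 4 GC boxes on either strand and a CCAAT box read on the opposite strand (ATTGG), which directly follows the last GC box.
THBS1: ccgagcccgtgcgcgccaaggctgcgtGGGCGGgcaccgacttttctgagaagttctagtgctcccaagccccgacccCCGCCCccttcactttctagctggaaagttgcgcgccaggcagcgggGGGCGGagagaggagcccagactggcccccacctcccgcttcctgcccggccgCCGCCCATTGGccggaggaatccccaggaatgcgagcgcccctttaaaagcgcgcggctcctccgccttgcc

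TGFBI, a TGF-beta-induced adhesion protein, fell the most of the 38 genes with chloroquine. It had 171 and 166 CPM with chloroquine, 130 and 127 CPM with melatonin and 280 and 295 CPM in untreated cells. The untreated libraries were the highest and the melatonin libraries the lowest, with no overlap. TGFBI fell by 0.77 ± 0.038 with chloroquine (1.71-fold lower, adjusted p = 1.27e-14) and by 1.16 ± 0.039 with melatonin (2.24-fold lower, adjusted p = 3.07e-19), or -0.71 and -1.06 with the offsets.

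TNC, tenascin-C, an anti-adhesive protein of remodelled tissue, was lowest with chloroquine. It had 24.5 and 23.5 CPM with chloroquine, 31.0 and 30.9 CPM with melatonin and 38.7 and 37.8 CPM in untreated cells, with no overlap. TNC fell by 0.67 ± 0.076 with chloroquine (1.59-fold lower, adjusted p = 2.01e-07) and by 0.30 ± 0.073 with melatonin (adjusted p = 0.000925). FN1, fibronectin, had 95.9 and 93.5 CPM with chloroquine, 74.1 and 78.1 CPM with melatonin and 107 and 99.6 CPM in untreated cells, and the groups did not overlap. FN1 fell by 0.44 ± 0.048 with melatonin and stood at -0.13 ± 0.047 with chloroquine (adjusted p = 0.0597), called without untreated library 2 (-0.18) or without melatonin library 1 or 2 (-0.13 each). LTBP1, which tethers latent TGF-beta to the matrix, was at -0.13 ± 0.063 and 0.03 ± 0.062 and passed in neither comparison, though it was called with chloroquine without untreated library 1 (-0.20).

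Of the proteases and their receptor, MMP1, interstitial collagenase, is the one that rose by the largest factor, on very few counts. Its raw counts were 11 and 10 with chloroquine, 32 and 23 with melatonin and 4 and 1 in untreated cells. The groups did not overlap, but MMP1 passed the low-count filter through its melatonin libraries alone, so it could enter the test only by being high there. Over the group totals the ratio of CPM was 9.22 for melatonin over untreated cells (95% counting interval 3.72 to 29.5) and 3.66 for chloroquine over untreated cells (1.34 to 12.4). The fitted log2 fold changes were 3.15 ± 0.58 with melatonin (adjusted p = 4.13e-05) and 1.82 ± 0.69 with chloroquine (adjusted p = 0.0609). The untreated libraries set the size of both, with 4.45 for melatonin and 3.13, then called, for chloroquine without untreated library 1, and 2.42 and 1.10 without untreated library 2.

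PLAT, tissue plasminogen activator, had 11.2 and 10.3 CPM with chloroquine, 8.46 and 6.65 CPM with melatonin and 11.2 and 12.8 CPM in untreated cells. It fell by 0.64 ± 0.13 with melatonin (1.56-fold lower, adjusted p = 0.000170) and was at -0.16 ± 0.13 with chloroquine. The melatonin libraries lay under all others. PLAU, urokinase, passed in neither comparison (-0.18 ± 0.23 and -0.26 ± 0.23, at 2.54 to 3.43 CPM). Its receptor PLAUR rose by 0.17 ± 0.059 with melatonin (adjusted p = 0.0169), a call that ended in DESeq2 and without melatonin library 2 (0.12) or untreated library 2 (0.14), and was at -0.13 ± 0.060 with chloroquine. MMP14, the membrane-bound activator of MMP2, fell by 0.24 ± 0.059 with chloroquine and by 0.34 ± 0.060 with melatonin, and both calls ended with the offsets (-0.10 and -0.12), the chloroquine call also without chloroquine library 1 (-0.20).

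The 4 protease inhibitors split, with SERPINE2 higher and TIMP3 lower with each agent. SERPINE2, protease nexin-1, which inhibits thrombin and the plasminogen activators, is on chromosome 2 at 223975112–224039319 (minus strand) and is the gene of the set that rose with chloroquine. It had 72.1 and 73.7 CPM with chloroquine, 114 and 111 CPM with melatonin and 57.4 and 56.2 CPM in untreated cells. The 3 groups stood apart in that order of melatonin, chloroquine and untreated cells. SERPINE2 rose by 0.36 ± 0.050 with chloroquine (1.28-fold, adjusted p = 5.26e-06) and by 0.99 ± 0.047 with melatonin (1.98-fold, adjusted p = 9.18e-16), or 0.32 and 0.91 with the offsets.

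TIMP3, the inhibitor that stays bound to the matrix, fell the most of the set with melatonin. It had 123 and 139 CPM with chloroquine, 73.0 and 69.0 CPM with melatonin and 201 and 170 CPM in untreated cells, with no overlap between groups. TIMP3 fell by 0.50 ± 0.058 with chloroquine (1.42-fold lower, adjusted p = 2.85e-07) and by 1.38 ± 0.062 with melatonin (2.60-fold lower, adjusted p = 1.76e-16). Its transcript is 48.7% GC, close to the median of all tested genes, and the offsets left the values at -0.51 and -1.43. TIMP3 lies within SYN3, which had 74 counts over all libraries. The 250 bases before its RefSeq start (GRCh38.p14, chr22:32801455-32801704, plus strand) are shown as the counterpart of the THBS1 promoter, with 5 GC boxes and a CCAAT box (ATTGG) in capitals.
TIMP3: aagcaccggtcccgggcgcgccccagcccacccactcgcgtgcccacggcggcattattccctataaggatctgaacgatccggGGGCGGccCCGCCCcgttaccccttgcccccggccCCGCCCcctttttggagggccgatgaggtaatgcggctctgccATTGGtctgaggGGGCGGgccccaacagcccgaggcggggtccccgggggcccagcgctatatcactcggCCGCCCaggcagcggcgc

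The promoters of THBS1, higher with melatonin, and of TIMP3, lower with melatonin, thus both held GC boxes and a CCAAT box, as letters found and not as sites shown to be bound. TIMP2, which also takes part in the activation of pro-MMP2, fell by 0.21 ± 0.036 with melatonin and was at 0.05 ± 0.035 with chloroquine. TIMP1, a secreted inhibitor with growth factor activity, had 128 and 125 CPM with chloroquine, 136 and 145 CPM with melatonin and 138 and 143 CPM in untreated cells. TIMP1 fell by 0.15 ± 0.042 with chloroquine (adjusted p = 0.00972), a call that ended with the offsets (-0.02), in DESeq2 and without chloroquine library 2 or untreated library 2 (-0.13 each). With melatonin TIMP1 was at -0.00 ± 0.042, which the offsets turned to 0.27, called, and the melatonin and untreated libraries overlapped.

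Of the 3 lysyl oxidases 2 fell with each agent, where 20.2% of all tested genes were called with chloroquine and 52.0% with melatonin. LOXL2, which also modifies type IV collagen, had 263 and 266 CPM with chloroquine, 171 and 180 CPM with melatonin and 319 and 303 CPM in untreated cells, with no overlap between groups. LOXL2 fell by 0.24 ± 0.037 with chloroquine and by 0.83 ± 0.038 with melatonin (1.77-fold lower, adjusted p = 3.73e-16), although ENTPD4 overlaps it on the same strand and part of its count is uncertain. LOX had 159 and 173 CPM with chloroquine, 131 and 137 CPM with melatonin and 204 and 173 CPM in untreated cells. SRFBP1, with 3020 counts summed beside 18444 for LOX, overlaps it on the other strand, which makes part of its count uncertain. LOX fell by 0.49 ± 0.054 with melatonin and by 0.18 ± 0.053 with chloroquine (adjusted p = 0.0128). Its chloroquine and untreated libraries met at 173 CPM, and that call ended in DESeq2 (-0.19) and without chloroquine library 1 (-0.13) or untreated library 1 (-0.06). LOXL4, at 0.736 to 1.86 CPM, passed in neither comparison (0.11 ± 0.37 and -0.32 ± 0.39).

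Set directly against each other, chloroquine and melatonin differed in most of these genes. The agents differ in dose (40 µM and 0.2 mM) and share the time of 16 h. With chloroquine over melatonin, 18 genes were higher, 9 were lower and 11 did not pass, or 71.1% called, where 47.0% of all tested genes were called, 23.9% higher and 23.1% lower. With library totals only the split over all genes was 2952 higher and 5177 lower, against 4041 and 3892 as fitted. With the offsets 17 of the 38 genes were higher and 10 lower, where 46.1% of all tested genes were called. The higher genes included TIMP3 (log2 difference 0.88 ± 0.063), COL16A1 (0.81 ± 0.11), COL5A1 (0.76 ± 0.034), COL5A2 (0.71 ± 0.24), LAMA4 (0.67 ± 0.078), LOXL2 (0.59 ± 0.038), LAMA5 (0.58 ± 0.040) and COL7A1 (0.55 ± 0.036). The lower genes were led by THBS1 (-1.61 ± 0.077) and SERPINE2 (-0.63 ± 0.045). MMP1 stood at -1.33 ± 0.43, but it entered the test only by being high with melatonin. The others were TNC and COL1A1 (-0.37 each), PLAUR (-0.30), TIMP1 and LTBP1 (-0.15 each) and COL4A1 (-0.12). Of the 7 laminins 2 were higher with chloroquine, LAMA4 and LAMA5, and with the offsets 3 were higher and 1 lower, LAMC1 at 0.14 and LAMB3 at -0.18 being added. Of the 11 collagens 7 were higher with chloroquine and 2 were lower, or 6 and 3 with the offsets, COL6A2 at -0.41 being added. Without offsets that is 28.6% of the laminins and 81.8% of the collagens called, beside 47.0% of all tested genes. The calls of COL1A1 (-0.29) and COL5A2 (0.60) ended without melatonin library 1, as did those of COL4A1 (-0.10), COL6A1 (0.12), HSPG2 (0.07), LTBP1 (-0.05) and MMP1 (-1.38). The offsets ended the calls of COL6A1 (0.12), HSPG2 (0.10) and LTBP1 (-0.11), and DESeq2 ended those of these 3 genes, COL4A1 and COL5A2. Without chloroquine library 1 the calls of COL4A1 (-0.10), COL5A2 (0.73), COL6A1 (0.24), HSPG2 (0.15) and LTBP1 (-0.19) ended, and without chloroquine library 2 those of COL5A2 (0.70), COL6A1 (0.26) and LTBP1 (-0.10). That of PLAT ended without melatonin library 2 (0.35), that of TIMP1 without melatonin library 2 (-0.11) or chloroquine library 2 (-0.12), and the count of lower genes was then 5 without melatonin library 1. MMP1 also lost its call without chloroquine library 1 (-1.36), chloroquine library 2 (-1.28) or melatonin library 2 (-1.29).

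Levels were also compared per length of transcript. In CPM per kilobase, TIMP1 stood first in every group, at 115 ± 2.01 with chloroquine, 128 ± 5.81 with melatonin and 128 ± 3.30 in untreated cells (SD, n = 2 each). In untreated cells COL5A1 came next at 117 ± 2.72, then TGFBI at 103 ± 3.86 and TIMP2 at 98.1 ± 1.45, which did not differ beyond their spread. With melatonin TIMP2 (84.8 ± 3.06) came after TIMP1, and LAMC1 (53.7 ± 2.25), COL12A1 (50.1 ± 0.018) and LOXL2 (49.6 ± 1.81) lay close together, with COL5A1 between the last of these. THBS1 stood at 2.44 ± 0.076 with chloroquine, 7.44 ± 0.225 with melatonin and 2.58 ± 0.237 in untreated cells. SERPINE2 had 28.4 ± 0.442 with chloroquine, 43.7 ± 0.877 with melatonin and 22.1 ± 0.330 in untreated cells, the last of these close to LAMA5 at 23.5 ± 0.777. The lowest levels were those of MMP1, NID1, LOXL4 and COL5A2, all under 1 CPM per kilobase.

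The 38 genes are GC-rich, and over all genes the fold changes moved with GC content. Their median transcript GC content was 55.0% (39.6% to 67.5%), against 48.5% over all tested genes, and 31 of them were at or above that value. Over all genes the log2 fold change shifted by -0.135 per 10% of GC with chloroquine and by -0.218 with melatonin, where replicate libraries of a group differed by at most 0.018. Across the 38 genes Pearson's r between GC content and log2 fold change was -0.482 with chloroquine and -0.416 with melatonin, as a description of points that share the same libraries. The 38 include MMP1 (43.35% GC), which entered the test only by being high with melatonin, and r without MMP1 was not computed. Of the 31 GC-richer genes none rose and 18 fell with chloroquine, and 4 rose and 21 fell with melatonin. Of the 7 GC-poorer genes 1 rose and 1 fell with chloroquine, and 3 rose and 4 fell with melatonin, MMP1 being among the 3 that rose. Among all tested genes 20.2% were called with chloroquine and 52.0% with melatonin. The median log2 fold changes of the GC-richer and GC-poorer genes were -0.24 and -0.05 with chloroquine and -0.32 and -0.37 with melatonin, so with melatonin the GC-poorer median was the lower one. With the offsets the median of the 38 genes was -0.11 with chloroquine and -0.23 with melatonin. The calls of COL5A1, LAMA5, TGFBI, TIMP3 and SERPINE2 with both agents, and of THBS1 with melatonin, were also made with the offsets.

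**Figure D3:**
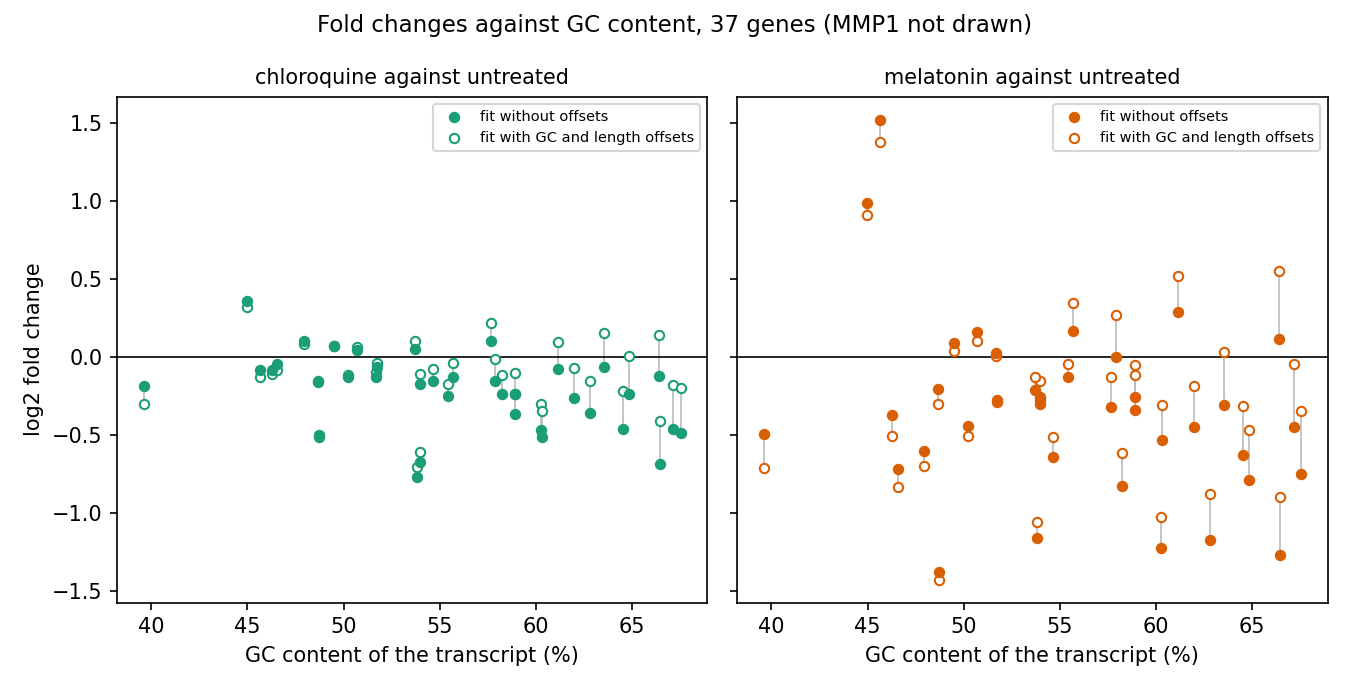
Log2 fold change against the GC content (%) of the transcript for 37 genes, chloroquine on the left and melatonin on the right, from the fit without offsets (filled) and with GC and length offsets (open), joined by a line per gene. MMP1 is not drawn, and the genes with the highest GC content, up to 67.5%, moved upwards with the offsets.

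Letters of common promoter motifs were counted in the set and in all promoters of the same length. RefSeq gave 40 promoter entries for 30 of the 38 genes, and the 250 bases before each start were searched on both strands for 4 motifs. The GC box GGGCGG was in 32 of 40 entries (80.0%), against 42.6% of 35116 promoters. The CCAAT box was in 12 (30.0%, against 32.0%), the AP-1 element TGANTCA in 3 (7.5%, against 6.57%; LAMA3, LAMB3 and PLAUR) and the TATA box TATAAA in 3 (7.5%, against 10.7%). The GC box was the motif whose share differed most between the 2 sets of promoters, and entries of 1 gene share sequence. These motifs can lie next to each other but share no bases by their letters in the promoters printed here.

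A wider list of 155 other matrix, protease, collagen-processing, TGF-beta and matrix receptor genes, of which 120 were tested, also gave more lower than higher calls with each agent. With chloroquine 10 rose, 38 fell and 72 did not pass, and with melatonin 26 rose, 49 fell and 45 did not pass, or 6 and 20, and 27 and 45, with the offsets. That is 40.0% called with chloroquine and 62.5% with melatonin, beside 20.2% and 52.0% of all tested genes. With the offsets 10.7% and 48.1% of all tested genes were called. This list too was chosen with earlier results of these data known, so no excess is read from its shares. The median log2 fold changes were -0.13 and -0.21. The genes named here are among the 3 of each role with the largest changes.

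**Figure D4:**
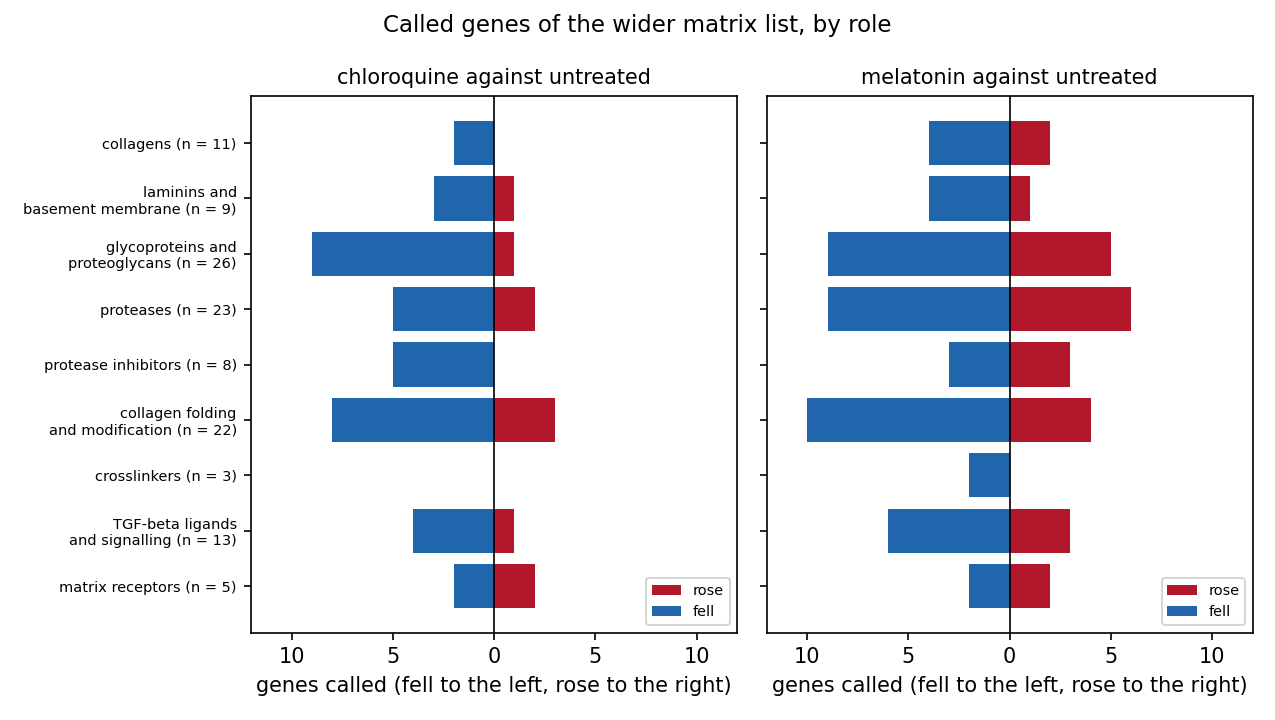
Number of genes of the wider list that fell (left of 0) and rose (right of 0), by role, with chloroquine on the left and melatonin on the right; n is the number tested. Glycoproteins and proteoglycans (26 tested) and the collagen folding genes (22 tested) gave the most calls with chloroquine, 9 and 8 of them lower. Both were among the largest roles. By share, 38.5% of the glycoproteins and proteoglycans were called with chloroquine, beside 40.0% of the whole wider list. The share of the collagen folding genes lay above that of the whole list. It lay under those of the protease inhibitors (62.5% of 8) and the matrix receptors (80.0% of 5).

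Of the collagen folding genes SERPINH1 fell the most with melatonin. SERPINH1, the collagen chaperone HSP47 of the ER, had 234 and 251 CPM with chloroquine, 132 and 126 CPM with melatonin and 281 and 285 CPM in untreated cells. SERPINH1 fell by 0.22 ± 0.038 with chloroquine, a call that ended with the offsets (-0.09), and by 1.13 ± 0.040 with melatonin. CREB3L1, an ER-bound transcription factor that drives collagen synthesis, fell by 0.42 with chloroquine, not called with the offsets (-0.24), and by 0.83 with melatonin. TMEM38B, an ER ion channel needed for collagen production in bone, rose by 0.25 with chloroquine (0.06 and not called with the offsets) and by 0.75 with melatonin. Of the 22 genes of this role 3 rose and 8 fell with chloroquine and 4 rose and 10 fell with melatonin, or 1 and 2, and 5 and 7, with the offsets. That is 11 of 22 called with chloroquine, beside 20.2% of all tested genes, and 63.6% with melatonin, beside 52.0%. With the offsets 10.7% of all tested genes were called with chloroquine and 48.1% with melatonin, close to the shares of these 22.

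Among the other proteases FAP, a serine protease of the cell surface that is also a fibroblast marker, had 10.2 and 10.1 CPM with chloroquine, 1.47 and 2.05 CPM with melatonin and 9.13 and 9.08 CPM in untreated cells. FAP fell by 2.40 ± 0.18 with melatonin and was at 0.16 ± 0.14 with chloroquine. TLL1, a procollagen-processing protease, fell by 0.86 with chloroquine and by 1.75 with melatonin, and MMP2, gelatinase A, fell by 0.39 and by 0.82. In FAP both melatonin libraries lay far under the rest. TIMP4 fell by 0.42 ± 0.11 with chloroquine and rose by 0.82 ± 0.096 with melatonin, at 9.68 and 9.83 CPM with chloroquine, 23.8 and 22.2 CPM with melatonin and 13.2 and 12.9 CPM in untreated cells. SERPINB5 (maspin) fell by 0.53 and by 0.59, and SPINT2, an inhibitor of hepatocyte growth factor activator, fell by 0.49 with chloroquine, not called with the offsets (-0.39), and by 0.90 with melatonin.

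Among further matrix proteins SDC2, the cell-surface proteoglycan syndecan-2, had 9.78 and 10.0 CPM with chloroquine, 25.5 and 28.9 CPM with melatonin and 9.38 and 9.58 CPM in untreated cells. SDC2 rose by 1.51 ± 0.10 with melatonin and was at 0.06 ± 0.12 with chloroquine. MATN2, a matrilin, rose by 0.78 with melatonin and was at -0.00 with chloroquine. MFAP2, a microfibril protein, fell by 0.73 with chloroquine (-0.51 and not called with the offsets) and by 1.98 with melatonin. Of the collagens COL4A6 fell by 0.58 and by 1.10, COL9A3 fell by 0.90 with melatonin, and COL5A3 rose by 0.93 with melatonin while COL5A1 fell. LAMC3 fell by 0.33 with chloroquine (-0.10 and not called with the offsets) and by 1.19 with melatonin, and PXDN, a peroxidase that crosslinks type IV collagen, fell by 0.45 with melatonin.

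Genes of TGF-beta storage and of matrix sensing split. LTBP3, which carries latent TGF-beta, fell by 0.55 with chloroquine and by 1.47 with melatonin (45.5 and 40.2 CPM with chloroquine, 20.8 and 25.0 CPM with melatonin, 60.9 and 64.4 CPM in untreated cells). LTBP4 fell by 0.25 and by 0.50, both ended by the offsets (0.02 and -0.09). TGFBR2, a TGF-beta receptor, rose by 0.72 with melatonin and was at -0.01 with chloroquine. Of the collagen receptors DDR1 fell by 0.29 with chloroquine (-0.11 and not called with the offsets) and by 0.95 with melatonin, and DDR2 rose by 0.50 with melatonin. LRP1, which clears protease and inhibitor complexes, fell by 0.38 and by 0.81, and TGM2, a transglutaminase, fell by 0.35 with melatonin. Without chloroquine library 2 the chloroquine calls of COL4A6 (-0.40), SPINT2 (-0.44), CREB3L1 (-0.24), TMEM38B (0.21) and LTBP4 (-0.17) ended, as did those of LAMC3 (-0.24), MFAP2 (-0.60), SPINT2 (-0.39), CREB3L1 (-0.40) and LTBP4 (-0.23) without untreated library 2. The chloroquine calls of MFAP2 without chloroquine library 1 (-0.65) and of TMEM38B without untreated library 1 (0.12) also ended, and PXDN gained 1 without melatonin library 1 or 2 (-0.23 each). The melatonin call of TGM2 ended without untreated library 2 (-0.21). In DESeq2 the chloroquine calls of SPINT2 (-0.49), CREB3L1 (-0.42) and LTBP4 (-0.25) ended as well.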

How the data were processed

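The authors deposited integer read counts per Ensembl gene, 1 column per library. Per the submitters' processing notes, reads were trimmed with fastp and the genome build was GRCh38. The aligner was not given in the sources used here, nor were the annotation release and the strand setting. Columns were assigned to groups by the sample titles, 2 libraries to each of 3 groups. Counts of 16877 genes that passed edgeR's low-count filter were fitted with edgeR 4.0.16 in R 4.3.3 (TMM factors, quasi-likelihood test, 1 term per group, all 6 libraries, 3 residual degrees of freedom), with Benjamini-Hochberg adjustment over all of them and a threshold of 0.05. The fits were tested on simulated data drawn from the fitted means and spreads. Those data held no trend with GC content or length, so they cannot test the calls against such a trend. Each gene's spread was drawn towards the trend over all genes, with 23.6 prior degrees of freedom. A gene whose own libraries lie wide apart can thus look more certain than they show. SE values of log2 fold changes are derived from the F statistic.

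Gene length and GC content are those of the longest protein-coding transcript of GENCODE release 29, available for 96.6% of tested genes. Offsets removed each library's local trend with both. Alternatives were DESeq2 1.42.0, other scalings, no filter, the replicate number as a block, the offsets, and each library left out in turn. Replicate numbers were not taken as pairs, since deviations of same-numbered libraries correlated between -0.0177 and -0.000155. Members and lists were chosen with earlier results of these data known. Members called with an absolute log2 fold change of at least 0.5 are given in every library, and up to 3 wider genes per role averaging at least 2 in log2 CPM are named. A gene that this rule also names is not reported here.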

Additional observations from a re-analysis of the deposited data

How the results depend on the processing

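Of 1339 values of the 38 genes under alternative settings, 1202 kept direction and side of the threshold, 99 lost the call, 12 gained it and 26 changed sign, counting only the 27 called genes for chloroquine against melatonin, where calls gained by others are not included. For the named wider genes these were 602, 36, 2 and 10 of 650. With the replicate block, melatonin gave 7 higher and 24 lower genes (COL5A2 lost its call), and chloroquine gave 1 and 19. The same-numbered libraries did not deviate together, and the block moved no other call of the 38 genes. Genes higher with chloroquine numbered 2 without the count filter and 1 to 2 with a library left out. All genes called with chloroquine, 3413, numbered 1799 with the GC and length offsets, 1856 with offsets and block, 2025 in DESeq2 and 1974 to 3732 with a library left out (2249 and 1974 without chloroquine library 1 and 2). Genes higher with melatonin numbered 3 in DESeq2 and 4 to 6 with a library left out. Genes lower with chloroquine than with melatonin numbered 5 to 9 with a library left out.

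Sign changes with the offsets, and with offsets and block, were as follows in log2 units. With chloroquine these were COL1A1 (0.10 and 0.10), COL6A1 (0.15 and 0.15), COL6A2 (0.14 and 0.14), COL7A1 (0.0066 and 0.0064), COL9A3 (0.12 and 0.12) and LTBP4 (0.018 and 0.016). With melatonin they were COL6A1 (0.031 and 0.032) and TIMP1 (0.27 and 0.27). TIMP1 with melatonin was 0.094 with library totals only and 0.00041 with the replicate block. MATN2 with chloroquine was 0.0030 with library totals only and 0.0093 without the count filter. With a library left out, uncalled values crossed 0 with chloroquine for COL1A1 (-0.20 to 0.063), COL6A1 (-0.15 to 0.026), LAMA4 (-0.097 to 0.0052), NID1 (-0.18 to 0.045), THBS1 (-0.17 to 0.014), LOXL4 (-0.32 to 0.44), MATN2 (-0.0040 to 0.0017), TGM2 (-0.064 to 0.20) and TGFBR2 (-0.035 to 0.0061). With melatonin they crossed 0 for TIMP1 (-0.048 to 0.049), LOXL4 (-0.89 to 0.20) and LTBP1 (-0.079 to 0.11). The cause was not tested. Without scaling beyond library totals, the median of all genes with melatonin was 0.10 higher.

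With 1 library left in a group, that library was assumed to vary like the others. Genes under about 100 counts, MMP1 above all, are limited by counting. A p over the threshold does not show that a gene did not differ.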
